A study of Mus musculus with 8 samples.

Results

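The genes described here encode 10 enzymes that build diacylglycerol and triacylglycerol: *Gpam*, *Agpat2*, *Agpat3*, *Lpin1*, *Lpin2*, *Lpin3*, *Dgat1*, *Dgat2*, *Mogat1* and *Mogat2*. They were taken by symbol from a liver RNA-seq table of 55385 gene identifiers, and all 10 were found. Bulk liver RNA from 4 *Usp39*-HKO mice and 4 control mice was sequenced, with 1 library per mouse. *Usp39* encodes a protein of the splicing machinery. The mice with the deletion came from a cross of *Usp39* fl/fl mice, in which loxP sites flank exon 2 of *Usp39*, to Albumin-Cre mice, which express Cre recombinase in hepatocytes. The study calls the deletion hepatocyte-specific. These bulk data do not show *Usp39* in the other liver cells by type. The controls were littermates that the labels call WT, and the sources used here do not give their floxed or Cre alleles. All 8 mice were male, 5 weeks old, on a C57BL/6J background and fasted for 16 h before the livers were taken. The comparison asked how the mRNA levels of these enzymes differed between the genotypes.

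The main route to triacylglycerol starts from glycerol-3-phosphate. Gpam adds the first fatty acyl chain in the mitochondrial outer membrane, Agpat2 and Agpat3 add the second to give phosphatidate, the lipins Lpin1 to Lpin3 remove the phosphate to give diacylglycerol, and Dgat1 or Dgat2 adds the last chain. Mogat1 and Mogat2 reach diacylglycerol from monoacylglycerol instead, a route best known from the intestine. In the liver the product is stored in lipid droplets or leaves the cell in very low density lipoprotein, and diacylglycerol and phosphatidate also feed the phospholipid branches.

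The 8 libraries held between 8589636 and 10418450 counts, so that 3 counts, the limit that a count of 0 allows, stood for 0.288 to 0.349 CPM. *Usp39* itself was 9.58 ± 0.71 FPKM in the controls and 8.44 ± 0.29 in *Usp39*-HKO mice (SD, n = 4 per genotype, as for every mean below). The log2 fold change was -0.41 (SE 0.11, adjusted p = 0.0212 in edgeR) and the genotypes did not overlap. The gene count sums all exons and all liver cells. Hepatocyte markers summed to 17813 to 19460 FPKM in the controls and 15079 to 21144 in *Usp39*-HKO mice. Of 8 tested hepatocyte genes, 2 (*Cps1* and *Cyp2e1*) were lower in edgeR and 0 higher. Their median log2 fold change was -0.41. With total counts only, 1 of the hepatocyte genes (*Cyp2e1*) was lower and 0 were higher. Markers of other liver cells also differed. Of these, 4 of 4 tested cholangiocyte genes, 6 of 7 macrophage genes and 6 of 8 stellate cell genes rose and 2 of 6 endothelial genes, *Stab2* and *Lyve1*, fell, and the cholangiocyte sum went from 26.5 to 28.7 FPKM in the controls to 64.2 to 285.7. With total counts only, 1 endothelial gene (*Lyve1*) was lower and 2 (*Pecam1* and *Cdh5*) were higher, while 4 cholangiocyte, 7 macrophage and 7 stellate cell genes were higher. Fewer cells of a type and less RNA per cell cannot be told apart in bulk RNA, and the part of cell composition in the results below was not tested. Library A475, a control, stood apart with 606.1 FPKM of exocrine pancreas markers against 2.92 to 5.15 in the other mice. Without it *Agpat2* and *Dgat2* still passed the test used below (adjusted p = 0.0348 and 0.0461 in edgeR).

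Agpat2, Mogat2 and Lpin1 are also known from fat, gut and muscle, so markers of those tissues were read. *Lep* and *Retn* (adipocyte), *Alpi*, *Sis* and *Cdx2* (enterocyte) and *Ckm*, *Myh2* and *Myh4* (skeletal muscle) were at 0 in all 8 mice. The adipocyte list summed to 4.48 to 7.90 FPKM over the controls and to 5.84 to 11.9 over *Usp39*-HKO mice, most of it *Fabp4*. *Cidea* of that list was at 0.047 ± 0.054 FPKM in the controls and 0.926 ± 0.371 in *Usp39*-HKO mice, without overlap. It had at most 13 counts and was not tested. *Adipoq* was at 0.060 and 0.018 FPKM. The muscle list summed to at most 1.24. The enterocyte list summed to 444.6 to 719.4 and 501.9 to 830.8 FPKM, carried by *Apoa4* and *Fabp2*, which hepatocytes express.

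Sequences are shown for *Agpat2* and *Lpin1* because the results turn on their genes. For *Agpat2* it is the 250 bases upstream of the annotated start (RefSeq, GRCm38.p6, chr2:26604418-26604667, minus strand, read 5′ to 3′), with GC boxes in capitals.
Agpat2 upstream: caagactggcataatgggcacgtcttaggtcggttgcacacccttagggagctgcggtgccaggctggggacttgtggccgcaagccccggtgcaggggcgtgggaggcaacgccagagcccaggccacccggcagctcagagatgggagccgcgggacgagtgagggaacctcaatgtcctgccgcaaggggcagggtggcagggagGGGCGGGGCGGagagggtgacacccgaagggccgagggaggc
The GC box, the core motif bound by Sp-family factors, was searched as GGGCGG on both strands. The window held 2 matches, which overlap by a base, and 32.7% of 32851 upstream windows of the same length held at least 1. Its GC content was 69.2%, against a median of 52.4% over those windows. RefSeq windows were at hand for 7 of the 10 enzymes, 11 windows in all, and not for *Dgat1*, *Dgat2* or *Mogat2*. Windows of *Gpam*, *Lpin2* and *Lpin3* also held a GC box, and the GC content of an *Lpin2* window was 83.2%. None of the 11 held a sterol response element (TCACNCCAC, both strands; 1.05% of all windows), and 1 *Lpin2* window held an E-box (CACGTG, both strands; 6.02% of all windows).
For *Lpin1* it is a coding exon of 99 bases, 33 codons, that 3 of the 6 coding transcripts in GENCODE vM21 hold and 2 skip (GRCm38, chr12:16571164-16571262, minus strand, read 5′ to 3′).
Lpin1 exon: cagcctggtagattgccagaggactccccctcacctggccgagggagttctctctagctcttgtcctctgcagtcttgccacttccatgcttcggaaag
The deposited count sums both forms of *Lpin1*, so the values below do not separate them.

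Of the 10 enzymes, 9 passed the filter on low values (at least 0.5 FPKM in at least 4 of the 8 mice) and *Mogat2* did not. *Agpat2* and *Dgat2*, the most abundant acyltransferases of their steps, passed the edgeR test at an adjusted p under 0.05, both lower in the knockout, and 0 were higher. That is 2 of 9, where 22.5% of the 14340 genes tested passed in either direction and 11.6% were lower, so the count was close to the background. The median log2 fold change of the 9 was -0.13, and that of all genes tested was -0.0015. Both also passed the study's cutoff (p under 0.05 and a log2 fold change beyond 0.5 either way), which 21.7% of all genes passed. In the deposited FPKM the genotypes did not overlap for 3 of the 10 enzymes, *Agpat2* lower and *Lpin3* and *Dgat1* higher, and 28.7% of the genes tested did not overlap. After TMM scaling, which sets the mice to a common level over most genes, *Agpat2* and *Dgat2* did not overlap, both lower, and *Lpin3* and *Dgat1* did. The share of all genes that did not overlap after TMM scaling was not computed, so this count has no background beside it.

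**Figure D1:**
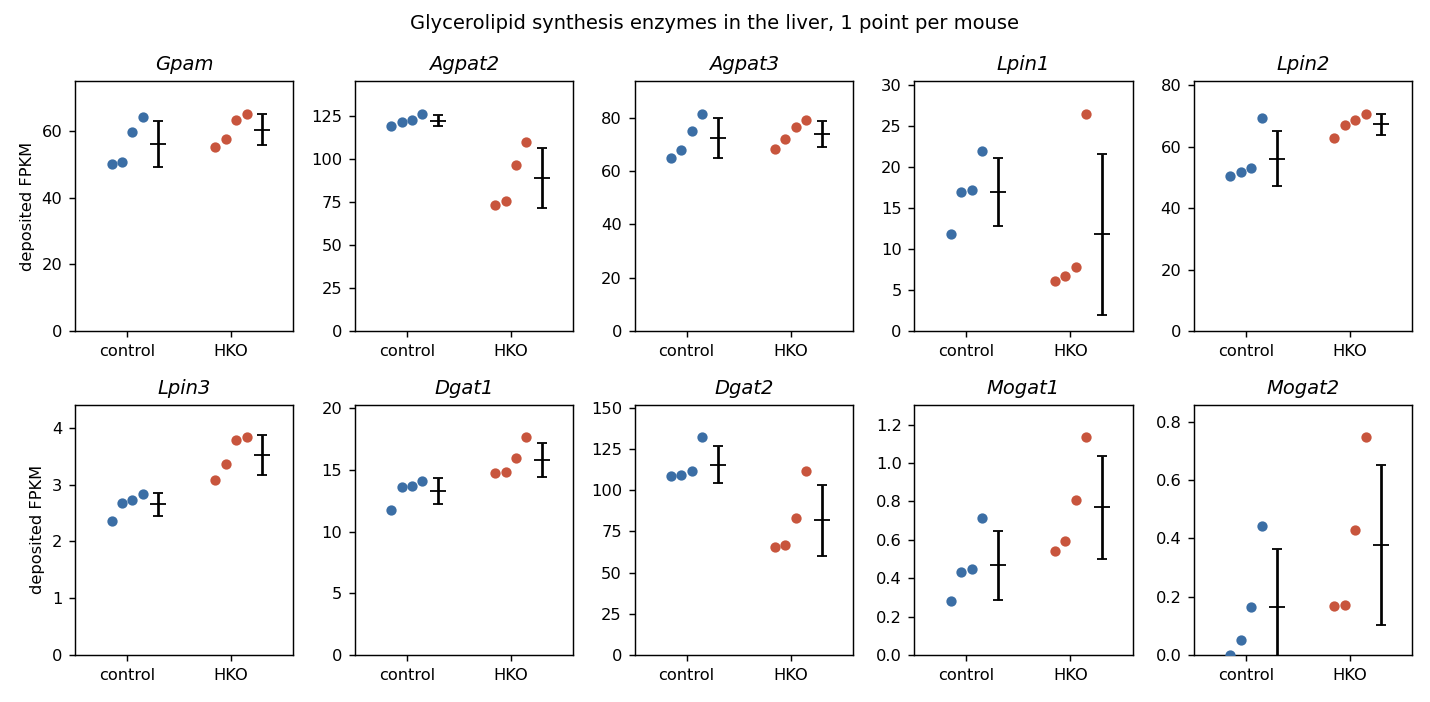
Deposited FPKM of the 10 enzymes (vertical axes, each from 0), 1 point per mouse, controls in blue and Usp39-HKO in red, with mean and SD beside them. Agpat2 is at 119.2 to 126.5 in the controls while Usp39-HKO mice are at 73.6 to 109.9, and 1 of them, A469, has the highest Lpin1 value, 26.5.

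Per length, the order of the control levels was *Agpat2*, *Dgat2*, *Agpat3*, *Lpin2*, *Gpam*, *Lpin1*, *Dgat1*, *Lpin3*, *Mogat1* and *Mogat2*, from 122.6 to 0.165 FPKM. Ranges over the 4 control mice did not overlap between *Dgat2* and *Agpat3*, *Gpam* and *Lpin1*, *Dgat1* and *Lpin3*, or *Lpin3* and *Mogat1*, and they overlapped between the other neighbours in this order. The genes lie on 8 chromosomes. *Dgat2* (chr7:99153658-99182719, minus strand) and *Mogat2* (chr7:99219084-99238619, minus strand) are the only neighbours, 36364 bases apart with no annotated gene between them.

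Gpam makes lysophosphatidate, the first step. *Gpam* (ENSMUSG00000024978, chr19:55067268-55127238, minus strand) was at 59.7, 64.2, 50.5 and 50.2 FPKM in control mice A468, A472, A473 and A475, and at 65.1, 63.2, 55.3 and 57.6 in *Usp39*-HKO mice A469, A470, A471 and A474. The genotypes overlapped, with means of 56.1 ± 6.93 and 60.3 ± 4.62. The log2 fold change was -0.13 (95% interval -0.42 to 0.16, adjusted p = 0.530 in edgeR), and 0.10 when libraries were scaled by total counts only. The other enzymes that can take this step did not pass the test either: *Gpat3*, of the endoplasmic reticulum, was at 7.35 ± 1.41 and 9.24 ± 1.17 FPKM, and *Gpat4* at 45.6 ± 6.14 and 54.2 ± 2.65.

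*Agpat2*, whose loss in humans and mice causes lipodystrophy, was lower in every *Usp39*-HKO liver than in every control. The gene (ENSMUSG00000026922, chr2:26593057-26604417, minus strand) was at 122.7, 121.8, 119.2 and 126.5 FPKM in controls A468, A472, A473 and A475. It was at 109.9, 75.8, 96.6 and 73.6 in *Usp39*-HKO mice A469, A470, A471 and A474. The controls lay close together, and the spread was wider in *Usp39*-HKO mice, with coefficients of variation of 2.48% and 19.5%. The fold change was 0.623 (95% interval 0.489 to 0.794), a log2 fold change of -0.68 (SE 0.16, adjusted p = 0.0114 in edgeR). The exact two-sided permutation test over the 70 assignments of the 8 mice gave p = 0.029, the smallest it can give. The call held in each of 15 alternative settings, with adjusted p between 0.000528 and 0.0348. Of the exon bases of *Agpat2*, 3% overlap *Egfl7* on the other strand, and the sources do not say whether strand was used in counting.

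*Agpat3* (ENSMUSG00000001211, chr10:78269178-78352489, minus strand), which prefers polyunsaturated chains, was at 64.9, 81.5, 67.8 and 75.0 FPKM in the controls and 71.8, 76.6, 79.2 and 68.2 in *Usp39*-HKO mice, in the order of mice above. The genotypes overlapped (72.3 ± 7.46 and 73.9 ± 4.91), and the log2 fold change was -0.20 (95% interval -0.47 to 0.07, adjusted p = 0.285 in edgeR), or 0.03 with total counts only. Of the FPKM that both genes gave, *Agpat2* took 63.0% ± 2.31 in the controls and 54.3% ± 4.65 in *Usp39*-HKO mice. This share does not depend on scaling between mice, and its ranges, 59.9 to 65.4% and 49.8 to 60.5%, overlapped through A469 alone.

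The lipins dephosphorylate phosphatidate, and Lpin1 also works as a transcriptional coactivator in the fasted liver. *Lpin1* (ENSMUSG00000020593, chr12:16535669-16610966, minus strand) split the *Usp39*-HKO mice. It was at 11.8, 17.1, 17.0 and 21.9 FPKM in controls A468, A472, A473 and A475. Mice A470, A471 and A474 were at 6.12, 7.80 and 6.70, below every control, while A469 was at 26.5, above every control. With all 8 mice the log2 fold change was -0.71 (SE 0.44, 95% interval -1.68 to 0.25, adjusted p = 0.276 in edgeR). Without A469 it was -1.54 (95% interval -1.96 to -1.13, adjusted p = 0.000368 in edgeR), so that this mouse decides the call.

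**Figure D2:**
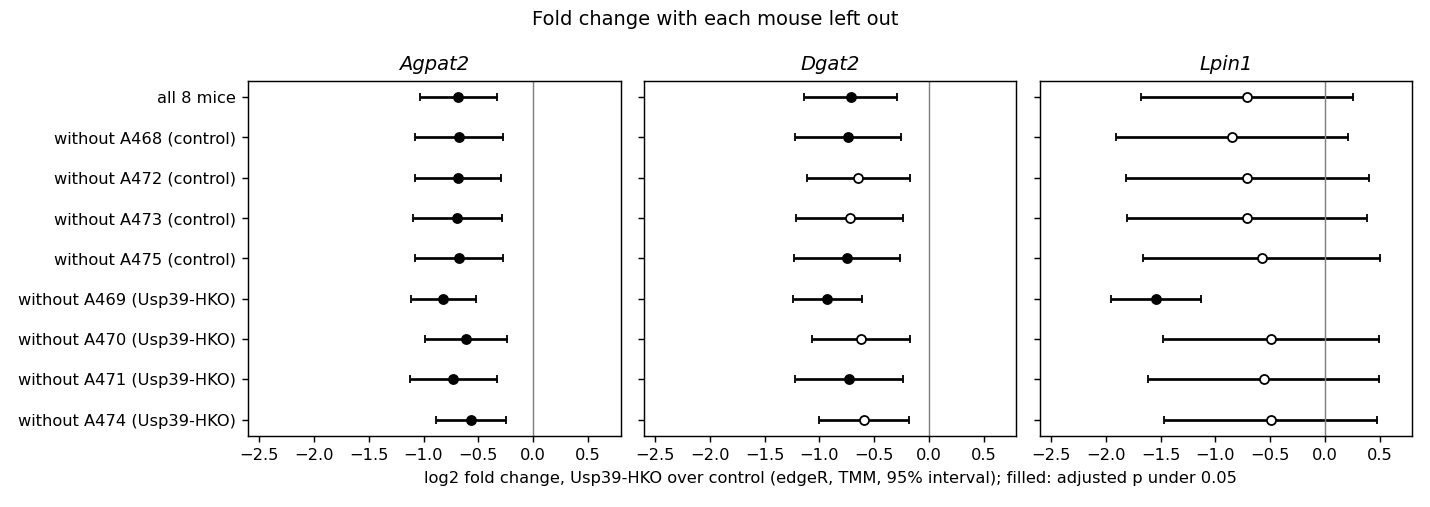
Log2 fold change of Agpat2, Dgat2 and Lpin1 (horizontal axes, edgeR with TMM scaling, bars are 95% intervals) with all 8 mice and with each mouse left out, filled where the adjusted p is under 0.05. Agpat2 is filled throughout, Dgat2 in 5 of 9 fits, and Lpin1 only without A469, at -1.54.

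*Lpin2* was the main lipin of these livers. The gene (ENSMUSG00000024052, chr17:71182560-71249817, plus strand) was at 50.6, 69.4, 51.7 and 52.9 FPKM in the controls and 62.7, 68.6, 70.8 and 67.1 in *Usp39*-HKO mice. Control A472 lay among the *Usp39*-HKO mice and the other 3 controls below them. The log2 fold change was 0.03 (95% interval -0.26 to 0.32, adjusted p = 0.908 in edgeR), or 0.26 with total counts only (adjusted p = 0.135 in edgeR).

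*Lpin3* (ENSMUSG00000027412, chr2:160880670-160906002, plus strand) was low. It was at 2.68, 2.73, 2.36 and 2.83 FPKM in the controls and 3.79, 3.08, 3.83 and 3.37 in *Usp39*-HKO mice, on 75 to 136 counts. The deposited values did not overlap (exact two-sided permutation p = 0.029), but TMM-scaled values did (exact permutation p = 0.286), and the log2 fold change was 0.18 (adjusted p = 0.424 in edgeR). In limma on log2(FPKM + 1), without TMM, it was 0.30 with an adjusted p of 0.0439. Of the FPKM of the 3 lipins, *Lpin1* took 22.4% ± 4.64 in the controls and 13.6% ± 9.92 in *Usp39*-HKO mice, and *Lpin2* took 74.1% ± 4.62 and 82.1% ± 9.82. In A469 *Lpin1* took 28.5%, in the other 3 *Usp39*-HKO mice 7.87 to 9.46%, and in the controls 18.1 to 28.2%.

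*Dgat2*, the enzyme best known for esterifying newly made fatty acids in the liver, was lower in *Usp39*-HKO mice. The gene (ENSMUSG00000030747) was at 108.5, 132.2, 112.0 and 109.4 FPKM in controls A468, A472, A473 and A475. It was at 111.9, 65.4, 83.4 and 66.6 in *Usp39*-HKO mice A469, A470, A471 and A474. In the deposited FPKM, A469 lay within the control range (exact two-sided permutation p = 0.086), and after TMM scaling it lay below, at 110.5 against 116.3 to 143.2 (exact permutation p = 0.029). The fold change was 0.609 (95% interval 0.454 to 0.818), a log2 fold change of -0.72 (SE 0.19, adjusted p = 0.0221 in edgeR). It fell short of the threshold with any of 4 single mice left out, control A472 or A473 or *Usp39*-HKO A470 or A474, at adjusted p of 0.051 to 0.0557 in edgeR. Without A469 the log2 fold change was -0.93 (adjusted p = 0.00121 in edgeR).

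*Dgat1* (ENSMUSG00000022555, chr15:76502015-76511953, minus strand), an unrelated protein that carries out the same reaction, was not lower. It was at 11.8, 13.6, 14.1 and 13.7 FPKM in the controls and 17.6, 14.9, 14.7 and 16.0 in *Usp39*-HKO mice. Every *Usp39*-HKO mouse was above every control in the deposited FPKM (exact two-sided permutation p = 0.029) and not after TMM scaling (exact permutation p = 0.943), and the log2 fold change was 0.02 (95% interval -0.23 to 0.27, adjusted p = 0.933 in edgeR).

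The ratio of *Dgat2* to *Dgat1* within a mouse is free of the scaling between mice. It was 9.23, 9.70, 7.95 and 7.97 in controls A468, A472, A473 and A475, and 6.34, 4.40, 5.67 and 4.17 in *Usp39*-HKO mice A469, A470, A471 and A474. The genotypes did not overlap, at 8.71 ± 0.89 and 5.14 ± 1.04. As a share of the FPKM of both genes, *Dgat2* took 89.6% ± 0.94 in the controls and 83.4% ± 2.75 in *Usp39*-HKO mice. The ratio of *Dgat2* to *Agpat2* overlapped, at 0.944 ± 0.10 and 0.912 ± 0.074, while that of *Gpam* to *Agpat2* was higher in every *Usp39*-HKO mouse, at 0.458 ± 0.059 and 0.695 ± 0.132.

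**Figure D3:**
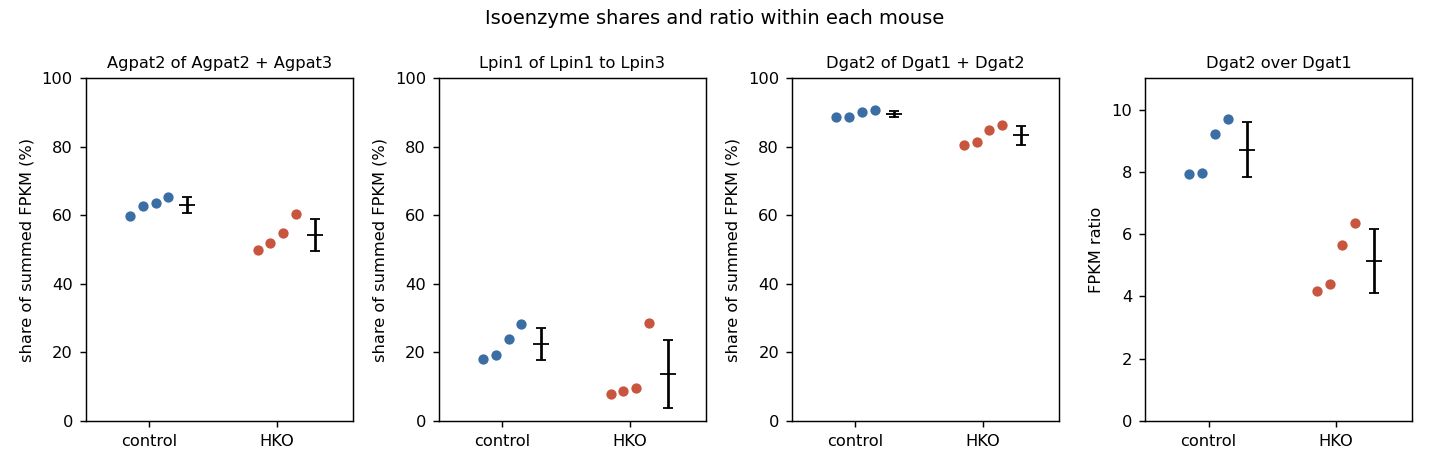
Share of the summed FPKM of a step (%) taken by Agpat2, Lpin1 and Dgat2, and the FPKM ratio of Dgat2 to Dgat1 (vertical axes from 0), 1 point per mouse with mean and SD. The Dgat2 share is 88.8 to 90.7% in the controls and 80.7 to 86.4% in Usp39-HKO mice.

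Among the *Usp39*-HKO mice, A469 had the highest *Agpat2*, *Lpin1* and *Dgat2* and A471 the next, with A470 and A474 lowest. Hepatocyte markers followed the same division, at 21144 FPKM in A469, 18399 in A471, 15079 in A470 and 15146 in A474. The cholangiocyte sum was lowest in A469 (64.2 FPKM) and highest in A474 (285.7), with 139.3 in A470 and 148.7 in A471. The part of these markers in the enzyme values was not tested. Over all 8 mice *Agpat2* and *Dgat2* had a Pearson r of 0.97 on log2 of TMM-scaled CPM + 1, and the points share the shift between genotypes. The genes most like *Agpat2* over the 8 mice were *Asgr1*, the asialoglycoprotein receptor of hepatocytes (r = 0.99), and *Cyp2c50*, a cytochrome P450 (r = 0.99). Those most like *Dgat2* were *Flt1*, a VEGF receptor (r = 0.99), and *Cdip1* (r = 0.99).

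The monoacylglycerol acyltransferases were barely detected. *Mogat1* (ENSMUSG00000012187, chr1:78510991-78538173, plus strand) was at 0.280, 0.712, 0.448 and 0.431 FPKM in the controls and 0.594, 1.13, 0.807 and 0.542 in *Usp39*-HKO mice, on 4 to 18 counts. It passed the filter with all 4 *Usp39*-HKO mice and 1 control. The genotypes overlapped, and the log2 fold change was 0.48 (95% interval -0.38 to 1.33, adjusted p = 0.417 in edgeR). Of its exon bases, 12.8% overlap *BC035947* on the other strand, so its few reads are uncertain. *Mogat2* (ENSMUSG00000052396) was at 0, 0.165, 0.444 and 0.0523 FPKM in the controls and 0.168, 0.428, 0.171 and 0.747 in *Usp39*-HKO mice, on 0 to 13 counts, and a difference was not detectable at this depth.

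**Figure D4:**
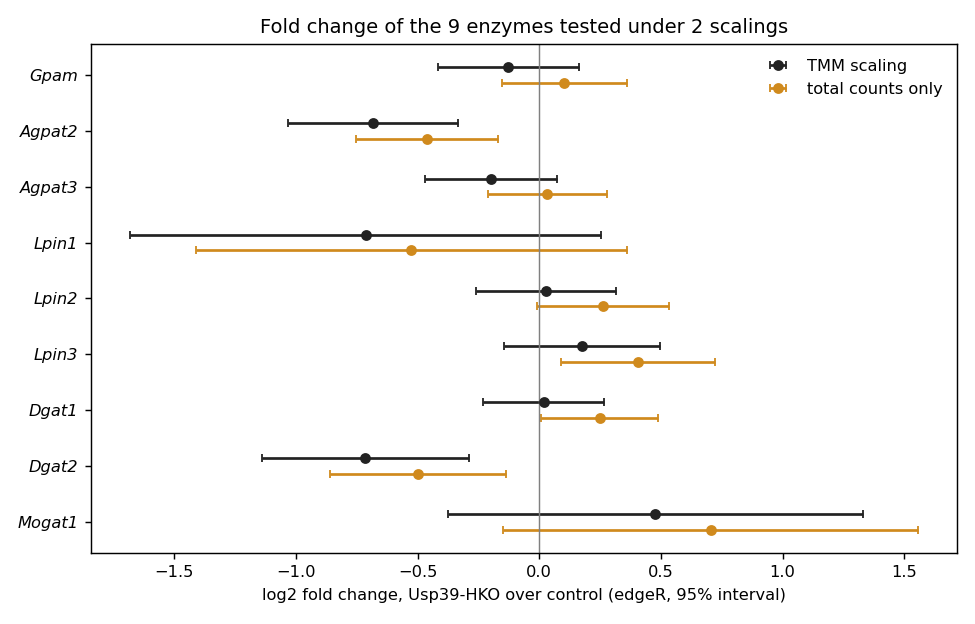
Log2 fold change (horizontal axis, Usp39-HKO over control, edgeR) of the 9 enzymes tested, with 95% intervals, under TMM scaling in black and total counts only in orange. Agpat2 (-0.68 and -0.46) and Dgat2 (-0.72 and -0.50) are below 0 under both, and Gpam and Agpat3 lie on different sides of 0.

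Of the other 7 enzymes tested, *Gpam* and *Agpat3* changed direction without TMM scaling, neither past the test, and 5 kept theirs. Without TMM the median log2 fold change of all 14340 genes was 0.23, and 83.3% of the genes called were higher in *Usp39*-HKO mice, against 48.4% with it. With total counts only, the log2 fold changes of *Agpat2* and *Dgat2* were -0.46 (adjusted p = 0.0238 in edgeR) and -0.50 (adjusted p = 0.0415 in edgeR). Less the median of all genes they were -0.70 and -0.73 with total counts only, and -0.68 and -0.71 with TMM. On that footing *Gpam* and *Agpat3* were at -0.13 and -0.20 under both scalings.

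The rest of the pathway was read from 8 lists of 92 genes, of which 80 were tested. In edgeR 23 passed, 7 higher and 16 lower, against 22.5% of all genes, and the median log2 fold change of the 80 was -0.07. Among the 7 higher, *Aqp7* and *Lpcat4* were tested only because they are high in *Usp39*-HKO mice. Without the list of 16 transcription factors, 18 of 64 tested genes passed, 7 higher and 11 lower, with a median of 0.02. The direction of the calls among the 80 depends on scaling, since with total counts only 16 were higher and 9 lower. The other acyltransferases of the glycerol backbone, among them *Gpat3*, *Gpat4*, *Agpat1* and *Agpat5*, passed in 0 of 10, and 1 of them, *Agpat4*, passed as higher with total counts only (adjusted p = 0.0375 in edgeR; named after its value was seen).

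Of 8 tested genes that supply or bind fatty acyl-CoA, 4 fell and 1 rose. *Slc27a5*, the bile acid and very long chain acyl-CoA synthetase of the liver, fell from 437.5 ± 37.3 to 273.4 ± 64.2 FPKM (log2 fold change -0.89, adjusted p = 0.00823 in edgeR). *Acsl1*, the main long-chain acyl-CoA synthetase of hepatocytes, fell from 241.5 ± 29.9 to 161.3 ± 33.4 (-0.81, adjusted p = 0.00825 in edgeR). *Slc27a2* fell by 0.79 on the log2 scale (adjusted p = 0.00452 in edgeR), and *Acsl4*, which prefers arachidonate, rose from 14.7 ± 1.23 to 29.6 ± 5.82. *Slc27a5*, *Acsl1*, *Slc27a2* and *Acsl4* did not overlap between the genotypes. The other gene that fell, *Slc27a4*, overlapped. Its log2 fold change was -0.38 (adjusted p = 0.0366 in edgeR), or -0.15 with total counts only (adjusted p = 0.3375 in edgeR). Of 8 tested genes of glycerol supply, *Aqp9*, the glycerol channel of hepatocytes, fell by 0.48 (adjusted p = 0.00992 in edgeR), and *Aqp7*, the glycerol channel of adipocytes, was at 0.269 ± 0.145 and 1.10 ± 0.43 FPKM. *Aqp7* reached the filter in 0 control and 4 *Usp39*-HKO mice, so it was tested only because it is high in that group, and its call (higher) adds no support. The fall of *Aqp9* was 0.25 with total counts only (adjusted p = 0.101 in edgeR).

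Of 10 tested genes that handle phosphatidate beside the lipins or regulate the lipins, 2 passed, both lipid phosphate phosphatases. *Plpp3* fell by 0.60 and *Plpp2* rose by 0.57 on the log2 scale (adjusted p = 0.00597 and 0.0248 in edgeR). Of 6 diacylglycerol kinases, which turn diacylglycerol back to phosphatidate, *Dgka* fell from 4.14 ± 0.58 to 2.43 ± 0.44 FPKM and *Dgke* rose from 0.919 ± 0.132 to 1.62 ± 0.32. In the phosphatidylcholine and phosphatidylethanolamine branch 4 of 14 passed. *Chpt1*, which uses diacylglycerol to make phosphatidylcholine, fell from 28.2 ± 3.6 to 16.7 ± 1.97 (log2 fold change -0.98, adjusted p = 0.00134 in edgeR), while the lysophosphatidylcholine acyltransferases *Lpcat4* and *Lpcat2* rose by 1.19 and 1.10 on the log2 scale from 0.363 and 1.44 FPKM. *Lpcat4* reached the filter in 1 control and all 4 *Usp39*-HKO mice, so it was tested only because it is high in that group, and its call adds no support. In the branch to phosphatidylinositol, phosphatidylserine and cardiolipin 3 of 8 passed: the phosphatidylserine synthases *Ptdss1* and *Ptdss2* fell by 0.57 and 0.42, and *Pgs1*, of cardiolipin synthesis, rose by 0.56. The FPKM of *Ptdss2* overlapped between genotypes, and with total counts only it did not pass (log2 fold change -0.18, adjusted p = 0.254 in edgeR).

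**Figure D5:**
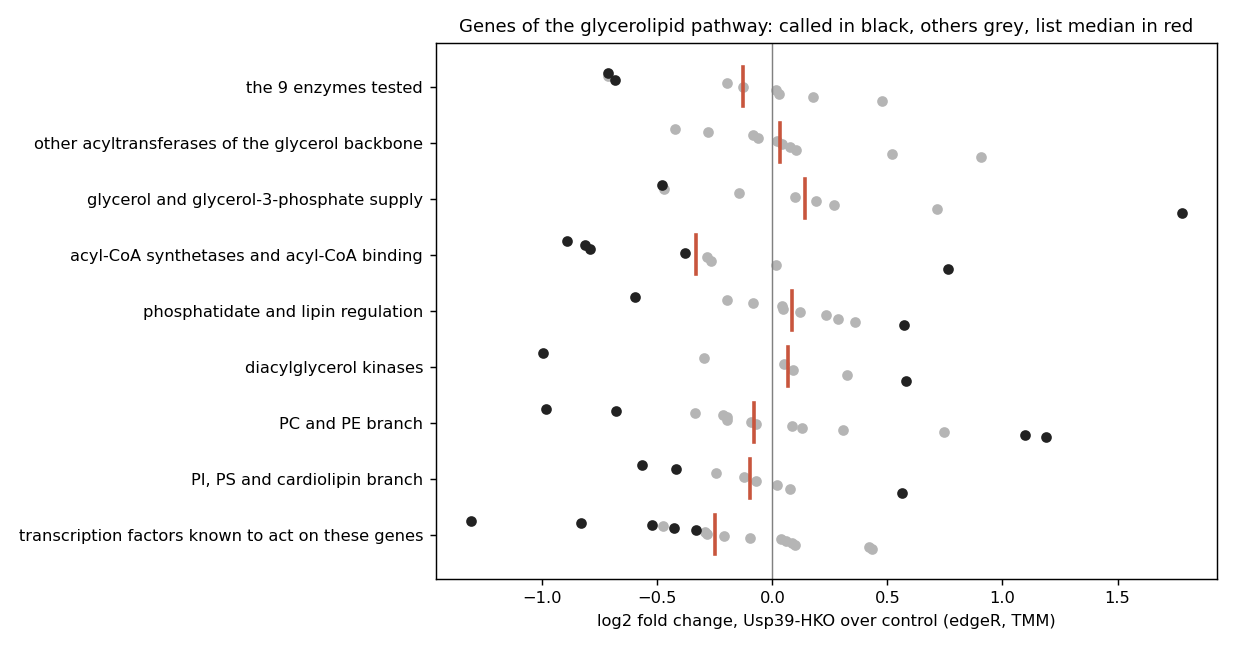
Log2 fold change (horizontal axis, Usp39-HKO over control, edgeR with TMM scaling) of each tested gene by list, called genes in black, the others in grey and the list median in red. The acyl-CoA list has the lowest median, -0.33, and the medians of the lists lie between -0.33 and 0.14.

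Of 16 transcription factors known to act on these genes, 5 were lower and 0 higher, where 11.6% of all genes tested were lower. With total counts only, 2 were lower and 2 higher. *Nr1i3* (CAR, a xenobiotic receptor) fell from 11.4 ± 1.83 to 5.35 ± 0.89 FPKM (log2 fold change -1.31, adjusted p = 0.000758 in edgeR). *Ppara*, the receptor that drives the fasting response of the liver, fell from 68.5 ± 7.83 to 45.1 ± 5.78 (-0.83, adjusted p = 0.00209 in edgeR). *Mlxipl* (ChREBP, a glucose-responsive factor of lipogenesis) fell by 0.52 on the log2 scale (adjusted p = 0.0113 in edgeR). With total counts only, *Nr1i3* and *Ppara* still passed, and *Mlxipl*, *Nr1h3* and *Nr3c1* did not (adjusted p = 0.0688, 0.208 and 0.567 in edgeR), while *Nr1i2* and *Pparg* passed as higher (adjusted p = 0.0145 and 0.0169 in edgeR). *Srebf1*, the sterol response element binding factor of lipogenesis, was at 6.40 ± 1.57 and 8.09 ± 2.03 FPKM (adjusted p = 0.752 in edgeR).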

How the data were processed

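Liver RNA was sequenced on an Illumina NovaSeq after TRIzol extraction and NEB Next Ultra library preparation. The submitters' notes name Trim Galore 0.6.1, FastQC 0.11.9, HISAT2, Picard, featureCounts and DESeq2 with mm10; the annotation release, strandedness and multimapping are not given in the sources used here. The authors deposited raw counts per gene without normalization, exon lengths, and FPKM computed from these counts, the length and the mouse's total count, which the counts give back exactly. The authors also deposited their DESeq2 comparison, as a mean normalized signal, log2 fold change with SE, Wald statistic (a score) and p-values, and these columns were not used. The table held 55699 entries for 55385 identifiers, and repeated entries were read once.

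Counts were tested with edgeR 4.0.16 (R 4.3.3): TMM scaling, quasi-likelihood test, all 8 livers, no covariate, 14340 genes that reached an FPKM of 0.5 in 4 or more mice, Benjamini-Hochberg over all of them, threshold 0.05. No batch was named. Single values were compared by exact two-sided permutation over the 70 assignments. DESeq2 1.42.0 and limma 3.58.1 (pseudocounts 1 and 0.1), other scalings, other filters and each mouse left out were alternatives. The count test was tested on simulated data. The limit for a count of 0 covers counting error only. Exon coordinates came from GENCODE vM21 (GRCm38) and upstream windows from RefSeq. Transcripts of the enzymes were compared with all others by BLAST 2.17.0, and only *Mogat1* shared 150 bases or more at 97% identity with another gene (203 bases, with *BC035947*). The enzymes, pathway lists and markers were chosen with earlier results of these data known. The text names all 10 enzymes, up to 3 called genes of each pathway list by size of log2 fold change, and the 2 genes most like each called enzyme. *Gpat3*, *Gpat4* and *Srebf1* were added for their known roles. Some genes whose call changed with scaling were added for that change, and others were left out. These additions were made after values were seen.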

Additional observations from a re-analysis of the deposited data

Results flagged for a closer look

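Among the 20 sets of 4 mice (10 enzymes in 2 genotypes), 3 had a mouse far from the other 3 by Dixon's 95% limit, and chance gives about 1 in 20. *Lpin1* was 26.46 FPKM in *Usp39*-HKO mouse A469, against 6.12 to 7.80 in the other *Usp39*-HKO mice. *Lpin2* was 69.36 FPKM in control mouse A472, against 50.6 to 52.9 in the other controls. *Dgat2* was 132.2 FPKM in the same control mouse, against 108.5 to 112.0 in the others. The cause of these values was not tested.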

How the results depend on the processing

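No paired analysis was possible because the labels do not say which mice came from the same litter. The call of *Agpat2* held under every alternative run. *Dgat2* kept its direction throughout and lost its call in 4 of 8 fits with 1 mouse left out, and *Lpin1* was called only without A469. With total counts only, 0 enzymes passed the study's cutoff, and with limma (pseudocount 1 or 0.1) 1 and 1. Over all 14340 genes, 3786 passed it with total counts only, and 2539 and 3616 with limma. With a mean FPKM of at least 5, only 6672 genes were tested, against 14340 in the main run. Of these, 1595 genes of the whole table and 14 of the other pathway genes passed. With 1 mouse left out, 1931 to 3510 genes of the whole table, 1 to 3 enzymes, and 17 to 26 other pathway genes passed. The study's cutoff was passed by 2 to 3 enzymes and by 2678 to 3410 of the 14340 genes. In FPKM 3 to 5 enzymes did not overlap. Groups separate more easily with fewer mice, and the share of all genes was not computed for these fits. That count is therefore not read as a result about the enzymes. The shares of *Agpat2*, *Lpin1*, *Dgat2* and *Mogat1* in their steps differed by -10.8 to -7.19, -13.7 to -6.77, -7.26 to -5.35 and -21.4 to -2.48 percentage points. *Gpam* turned positive with total counts only (0.10) and limma (0.11 and 0.11), as did *Agpat3* (0.0327, 0.0355 and 0.0360). *Lpin2* was -0.000501 and *Dgat1* -0.0092 on the log2 scale without a filter, and with 1 mouse left out they ranged from -0.0145 to 0.145 and from -0.0568 to 0.0545. *Lpin3* was called in limma (0.30 and 0.39, adjusted p = 0.0439 and 0.0393). With counts of 0 to 18, *Mogat1* and *Mogat2* were limited by depth.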
